A study of Homo sapiens with 8 samples.

Results

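The polyA RNA of IMR90 cells treated with DMSO alone was described here from 2 of the 8 libraries of a Nutlin-3a time course, over all 18215 genes of the deposited table. IMR90 is a human lung fibroblast line, and DMSO is the solvent in which Nutlin-3a, a compound that keeps MDM2 from binding p53, is given. The 2 libraries, replicates 1 and 2, were chosen by their label as DMSO controls, with no use of any measured value. All cells were at passage 28 and were cultured at 3% oxygen and 5% CO2 in DMEM that held 10% serum, and seeding, the day before treatment, was at 300K cells per mL. The other 6 libraries, which held cells given Nutlin-3a at 3 ug per mL for 6, 9 or 12 h, enter only as a gauge of replicate spread, and no treatment contrast was made. The time the DMSO cultures were kept is not stated in the labels, and neither is whether the replicates were separate cultures. The spread between them may therefore be technical.

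Fibroblasts are the cells that build and remodel the connective tissue of an organ. They secrete collagens and glycoproteins, fold and crosslink them, pull on the resulting matrix through integrins and an actin cytoskeleton, and keep a memory of their position in the body in the expression of HOX genes. Lung fibroblasts in culture divide, and serum, attachment to plastic and low oxygen are known to shape what they express.

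The table gives normalized counts, which are reads per gene over a size factor of the library. Levels of different genes are compared here only as TPM, computed from these counts and the length of the longest transcript of each gene, so that all levels of a library add to the same total. A pair of values gives replicate 1 and then replicate 2, and ± stands for the SD around a mean (n = 2). The orders of genes given here rest on that length. A level per coding length, with the untranslated ends left out, was set beside it for 680 detected genes. These were the members of the gene lists used here, ribosomal proteins aside, and the 30 highest genes. The level per coding length differed by 2-fold or more for 178 of them, and it is printed for some genes, mostly where it turns an order round. A gene counts as detected here when its normalized count was at least 10 in both libraries. This held for 72.3% of all genes of the deposited table, the share beside which each count of detected members of a list stands. That share leaves out genes with no row, whereas a list member with no row counts as not detected. Counted as the lists are, 62.0% of coding genes outside a stretch of chromosome 6 described below were detected. A gene that is "not listed" has no row in the table used here.

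Gene reads came to 27.9 M in replicate 1 and 25.3 M in replicate 2, within the range of 21.9 to 33.6 M over the 8 libraries. A floor of 3 reads corresponds to a normalized count of 2.93 in replicate 1 and 3.22 in replicate 2, a limit from counting error alone because duplicate molecules carried no marker. Reads that aligned in several places made up 21.0% and 20.8% of the totals and were not given to genes, so genes with near-identical copies elsewhere in the genome (actins, GAPDH, ferritins, thymosins, ribosomal proteins) are less certain than their counts imply. It is not stated whether counting used the strand, so that overlapping genes on opposite strands cannot be told apart.

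All 12 markers of fibroblasts and all 11 of smooth muscle cells and pericytes were detected, against 5 of 10 endothelial, 4 of 8 mesothelial, 4 of 12 epithelial and 1 of 10 immune markers. The fibroblast markers had a median of 223 TPM. COL1A1, a chain of type I collagen, had 8756 and 8391 TPM, and COL1A2, its partner chain, had 4871 and 5238 TPM. PDGFRA, a receptor for platelet-derived growth factor found on mesenchymal cells, had 100.1 and 97.7 TPM. TWIST1, a mesenchymal transcription factor, was the lowest of the 12 with 48.9 and 42.5 TPM. Between these lay VIM, COL3A1, the surface protein THY1 (439 TPM), the proteoglycan DCN (254 TPM), PDGFRB (191 TPM), the membrane protease FAP (119 TPM), the transcription factor PRRX1 (94.8 TPM) and the proteoglycan LUM (78.0 TPM). For each of the 12 the libraries lay close to each other, and 0 of them differed by 1.5-fold, against 0.525% of all genes with a mean normalized count of at least 50.

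Of 12 epithelial markers, 4 were detected, and the highest was the tight junction protein CLDN4 at 7.60 ± 0.378 TPM. MUC1 (4.42 TPM), CLDN7 (2.03 TPM) and EPCAM (1.58 TPM) followed, while CDH1, which encodes E-cadherin, stood at 0.0640 TPM. SFTPB, FOXJ1 and ESRP1 lay between 0.0158 and 0.153 TPM and were not detected. The lung epithelial genes NKX2-1, SFTPC and SCGB1A1 and the basal keratin KRT5 were not listed. Of 10 immune markers only CD68, a lysosomal protein of macrophages and other cells, was detected, at 53.5 ± 6.95 TPM. PTPRC, which encodes the pan-leukocyte protein CD45, stood at 0.0840 TPM, CD14 (0.268 TPM) and CSF1R (0.496 TPM) were not detected, and CD3D, CD3E, MS4A1, LYZ and TYROBP were not listed.

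Endothelial markers were low with a single exception. TEK, a receptor for angiopoietins, had 52.0 and 50.2 TPM, whereas the next of the 10 markers, TIE1, had 1.88 and 1.48 TPM. ESAM, VWF and KDR were detected below 1 TPM, CDH5 (0.0291 TPM), ERG (0.0516 TPM) and CLDN5 (0.199 TPM) were not, and PECAM1 and EMCN were not listed. The 11 markers of smooth muscle cells and pericytes were detected at widely different levels, with a median of 61.1 TPM and 5 at 100 TPM or more. They included ACTA2 (762 ± 73.8 TPM) and ACTG2 (529 ± 17.8 TPM), which encode smooth muscle actins, CNN1 (212 TPM), MCAM (157 TPM), CSPG4 (103 TPM), NOTCH3 (61.1 TPM), LMOD1 (37.5 TPM) and KCNJ8 (26.9 TPM). DES (1.17 TPM), the smooth muscle myosin MYH11 (0.787 TPM) and the pericyte gene RGS5 (1.89 TPM) were at the low end. Of 8 mesothelial markers, 4 were detected. These were KRT18 (128 TPM) and KRT8 (13.6 TPM), which are keratins of simple epithelia, BNC1 (8.66 TPM) and CALB2 (2.83 TPM), while LRRN4 (0.327 TPM), WT1 (0.0384 TPM) and MSLN (0.0275 TPM) were not and UPK3B was not listed. In a bulk sample, a few cells of a type and a low level in all cells cannot be told apart.

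**Figure D1:**
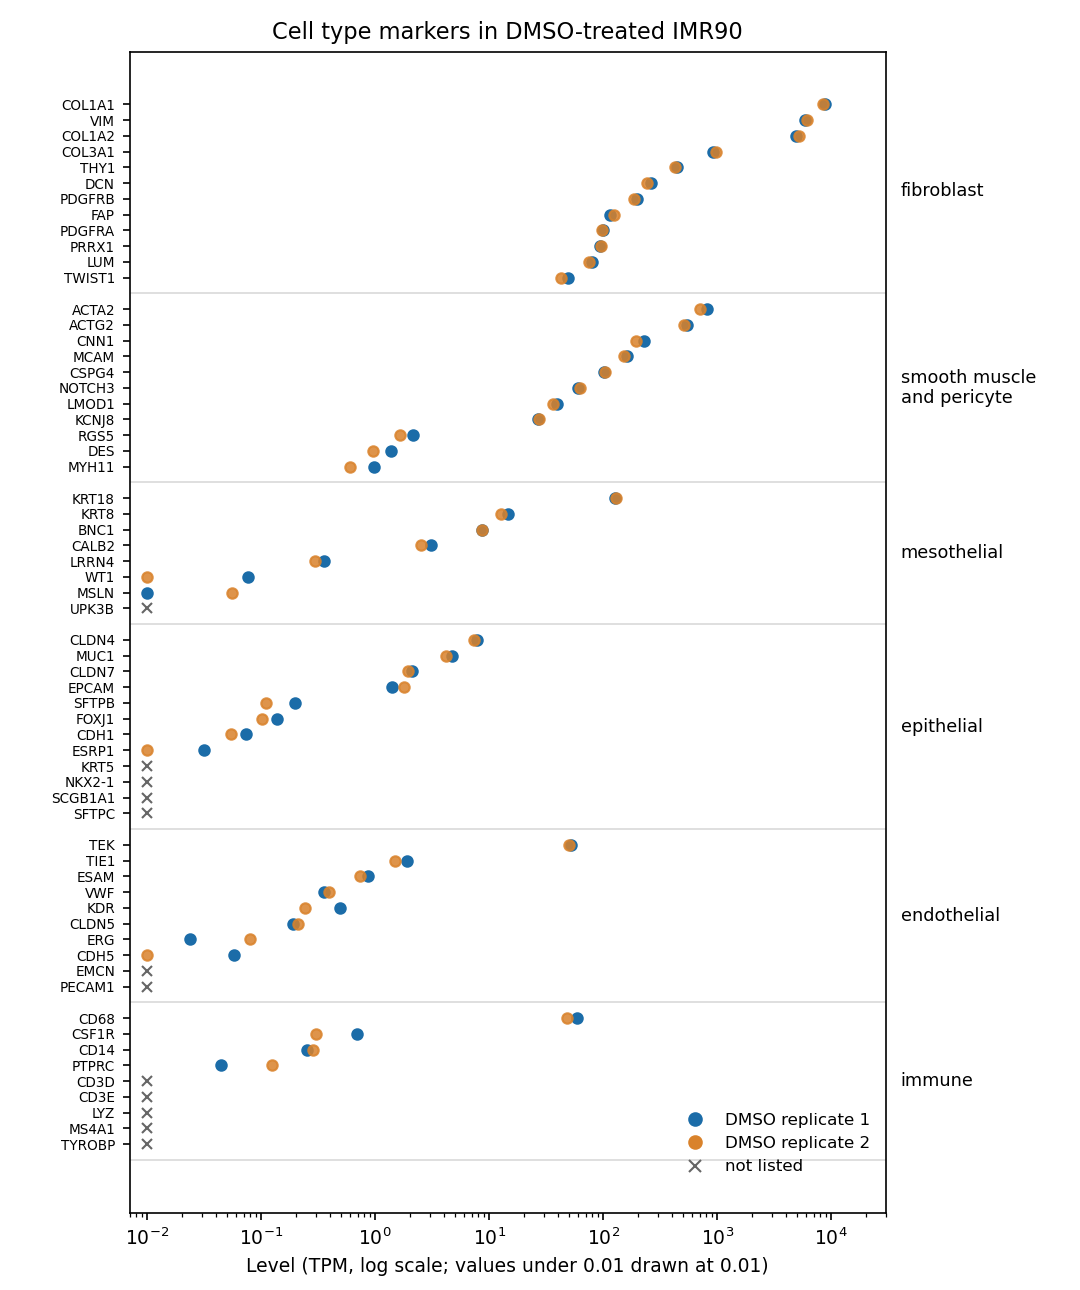
Levels of the cell type markers reported here (TPM, log scale, values under 0.01 drawn at 0.01) in DMSO replicates 1 and 2, by list, with genes that are not listed marked by a cross. All 12 fibroblast markers lie at or above the 42.5 TPM of TWIST1 in replicate 2, and among the endothelial markers only TEK lies above 2 TPM.

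Of the 18215 genes, 13173 (72.3%) were detected and 5042 were not, 83 of which were at 0 in both libraries. Levels spanned several orders of magnitude. Of the 17500 genes that could be given a length, 12485 reached 1 TPM, 8855 reached 10 TPM, 1943 reached 100 TPM and 109 reached 1000 TPM. The median detected gene had 23.5 TPM, with the 10th and 90th percentiles at 1.57 and 145 TPM. The 10 highest genes held 8.63 ± 0.421% of all TPM, the 100 highest 25.6 ± 0.745% and the 1000 highest 59.0 ± 0.517%. The first 594 genes of the ranking held 50% of the TPM. Protein-coding genes took 99.4% of the gene reads, and 93 of the 100 highest genes were shared between the replicates.

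**Figure D2:**
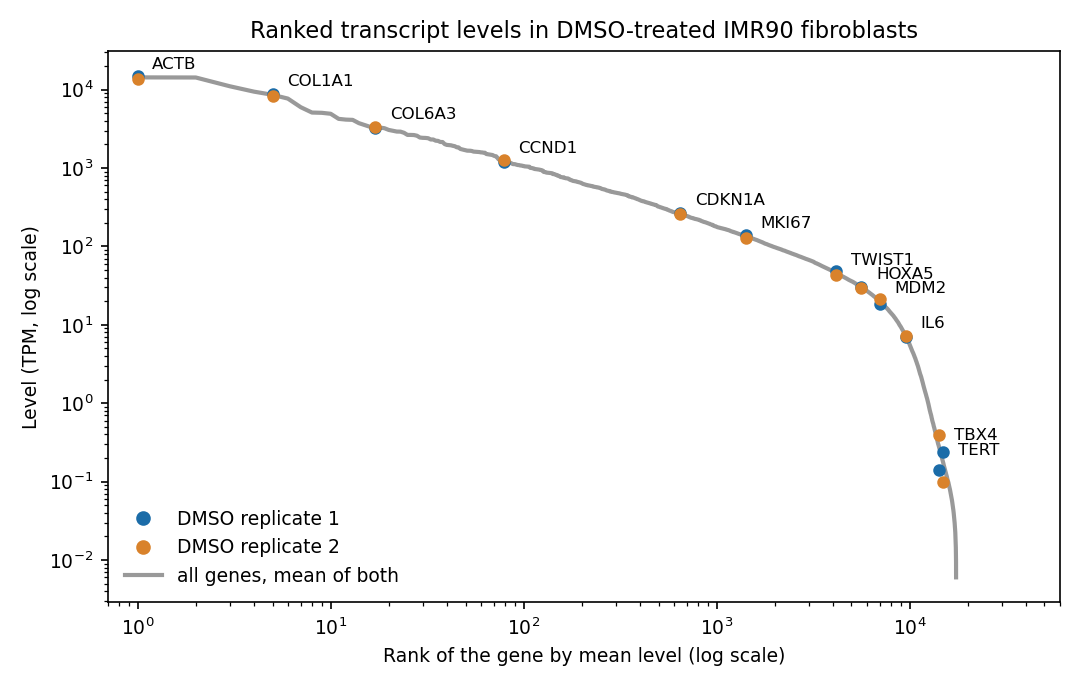
Level (TPM, log scale) of each gene with a length against its rank (log scale), as the mean of both DMSO libraries (grey line), with 12 named genes drawn as points for each library. ACTB and COL1A1 lie near the top, the cell cycle genes CCND1 and MKI67 lie within the upper ranks, and TERT and TBX4 lie below 1 TPM, where the libraries separate.

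The top of the ranking was made of cytoskeleton, matrix, glycolysis and translation genes. By the lists used here, 19 of the 100 highest genes encode cytoskeletal proteins, 15 ribosomal proteins, 7 collagen chains, 7 members of the S100, galectin, annexin and thymosin families and 6 glycolytic enzymes. ACTB, which encodes the cytoplasmic beta-actin, had 14981 and 13644 TPM, and TMSB10, a thymosin that binds actin monomers, had 15214 and 13312 TPM, so their order was not settled between the libraries. The other cytoplasmic actin, ACTG1, followed with 10974 and 11084 TPM. The glycolytic enzyme GAPDH had 10047 and 8793 TPM and COL1A1 followed it. LGALS1, a secreted galectin that binds matrix sugars, had 7954 and 7403 TPM, and VIM, the intermediate filament of mesenchymal cells, had 5843 and 6072 TPM. FTL, the light chain of the iron store ferritin, had 5590.5 and 4599 TPM, and FN1, which encodes fibronectin, had 5043 and 4788 TPM. FTL lay above COL1A2 and FN1 in replicate 1 and below both in replicate 2, so the order of these 3 was not settled either.

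The next 20 genes continued this pattern. They included HSPA8 (4232 TPM), a constitutive chaperone, TGFBI (4141 TPM), a secreted matrix protein named for its response to TGF-beta, PKM (4109 TPM) and ENO1 (3215 TPM) of glycolysis, and LDHA (2915 TPM), which makes lactate. TPM2 (3733 TPM), TPM4 (2424 TPM), PFN1 (3525 TPM), MYL6 (2980.3 TPM) and CFL1 (2631 TPM) belong to the actin apparatus. The metallothionein MT2A (3349 TPM), the calcium binding proteins S100A6 (3279 TPM), CALR (3057 TPM) and ANXA5 (2908 TPM), the matrix genes COL6A3 (3309.7 TPM) and SPARC (2641 TPM), the inhibitor TIMP1 (2811 TPM), the integrin chain ITGB1 (2640.5 TPM) and the tetraspanin CD63 (2446 TPM) were also among them. Counted as reads with no regard to length, long matrix genes moved up. COL1A1 led with normalized counts of 480150.0 and 455210.0, before FN1 with 377010.0 and 354140.0, COL6A3 with 286170.0 and 290710.0 and ACTB with 274170.0 and 247020.0. A ranking per coding length kept 19 of the 30 highest and 64 of the 100 highest genes. MTRNR2L9 (1076 TPM) ranked in the first 100, a rank that rests on the annotated length of 75 bases used for it, since its normalized counts were only 662 and 647. It is a nuclear copy of mitochondrial ribosomal RNA sequence, and its reads cannot be told apart with certainty from those of the mitochondrial RNA.

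The promoters of the highest genes were set against those of lower genes by their sequence, using RefSeq promoters on GRCh38.p14 (250 bases before the start). The table held 75 of the 100 highest genes, and classes were therefore formed from the coding genes it held. The letters TATAAA, searched on the gene's strand in the 50 bases before the start, were found in 7% of the 100 highest promoters, 3% of the next 900, 1.25% of other detected genes and 5.86% of genes not detected, against 3.70% of all 14896 coding promoters. GGGCGG, on either strand within 250 bases, was in 80.0%, 72.0%, 67.7% and 45.5% of these classes in the same order, against 56.9% of all. CCAAT on either strand was in 39.0%, 39.4%, 34.2% and 31.2%, against 34.5% of all. The 14896 also hold promoters that fall in none of these classes. TATAAA was thus found at both ends of the range of levels, while the share with GGGCGG was highest in the top class. These matches are descriptions of letters and were not tested. The 7 promoters of the top class with TATAAA near the start are shown because they show how the letters are spaced. Each gives the 60 bases just before the start, 5′ to 3′ on the gene's strand, with TATAAA and GGGCGG or its complement CCGCCC in capitals.
MT2A: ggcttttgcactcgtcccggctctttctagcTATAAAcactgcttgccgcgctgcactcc
CALR: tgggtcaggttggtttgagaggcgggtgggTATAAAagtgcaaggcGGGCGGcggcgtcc
COL6A2: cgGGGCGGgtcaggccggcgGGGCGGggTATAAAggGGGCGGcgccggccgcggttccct
EEF2: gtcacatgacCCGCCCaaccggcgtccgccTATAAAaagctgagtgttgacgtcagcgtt
ANXA2: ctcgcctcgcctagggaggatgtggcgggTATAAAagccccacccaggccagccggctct
P4HB: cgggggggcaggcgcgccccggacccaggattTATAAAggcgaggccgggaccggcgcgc
IGFBP4: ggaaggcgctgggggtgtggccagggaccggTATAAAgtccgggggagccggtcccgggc
They lie at chr16:56608524-56608583 (plus strand), chr19:12938549-12938608 (plus strand), chr21:46098052-46098111 (plus strand), chr19:3985464-3985523 (minus strand), chr15:60397987-60398046 (minus strand), chr17:81860536-81860595 (minus strand) and chr17:40443390-40443449 (plus strand), in the order shown. The first base of TATAAA lay between position -32 (COL6A2) and position -28 (P4HB), counted back from the base before the start as -1. Their genes encode a metallothionein, chaperones of the endoplasmic reticulum (CALR and P4HB), a type VI collagen chain, a translation elongation factor (EEF2), an annexin and a binding protein for insulin-like growth factors, so they come from several of the groups described here.

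Collagen chains spanned the whole range of levels. Of 44 chains, 30 were detected, 12 reached 100 TPM and 7 reached 1000 TPM, and together they took 5.70 ± 0.0453% of the gene reads and 2.85 ± 0.0246% of all TPM. Among the fibrillar chains, COL1A1 and COL1A2 led. Type I collagen is a trimer with more of the first chain than of the second, and the ratio of COL1A1 to COL1A2 was 1.80 and 1.60 (1.78 ± 0.145 per coding length). COL3A1, the chain of type III collagen, had 918 and 968 TPM, so that COL1A1 was 9.10 ± 0.616 times as high. COL5A2 (685 ± 16.2 TPM) and COL5A1 (419 ± 5.29 TPM), which form the type V collagen that starts fibrils, came next. COL11A1 (35.8 TPM), COL5A3 (31.9 TPM), COL27A1 (12.6 TPM) and COL24A1 (2.03 TPM) followed, while COL2A1 of cartilage (0.150 TPM) and COL11A2 (0.0394 TPM) were not detected. COL11A2 lies in the stretch of chromosome 6 described below, where values are not read as levels of these cells.

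The highest chains of the network and beaded filament collagens stood above the minor fibrillar ones, though other chains of these kinds were far lower. Type VI collagen, which forms beaded filaments around cells, was represented by COL6A3 with 3266 and 3354 TPM, COL6A2 with 2532 and 2303 TPM and COL6A1 with 2303 and 1991 TPM. COL6A2 lay above COL6A1 by a ratio of 1.13 ± 0.0403, but below it per coding length (0.929 ± 0.0332). Of the basement membrane chains, COL4A1 had 1866 and 1924 TPM and COL4A2 1616 and 1586 TPM, a ratio of 1.18 ± 0.0411. The other type IV chains were far lower, with COL4A5 at 23.7 TPM, COL4A6 at 4.10 TPM, and COL4A3 (0.100 TPM) and COL4A4 (0.107 TPM), which are chains of kidney and lung basement membranes, not detected. COL18A1, the source of endostatin, had 195 ± 2.39 TPM and the related COL15A1 had 33.4 ± 0.473 TPM. COL12A1, which coats fibrils, stood at 835 ± 6.24 TPM, against 7.49 ± 0.833 TPM for COL14A1 of the same class. COL16A1 (78.2 TPM), COL8A1 (73.8 TPM), COL13A1 (69.0 TPM) and COL7A1 (45.2 TPM), the anchoring fibril chain, were intermediate. The other detected chains (COL9A2, COL9A3, COL8A2, COL10A1, COL17A1 and COL25A1) lay between 0.450 and 2.68 TPM. The 10 remaining chains of this class, from COL20A1 (0.0230 TPM) to COL26A1 (0.121 TPM), were not detected, COL6A5 and COL6A6 among them.

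**Figure D3:**
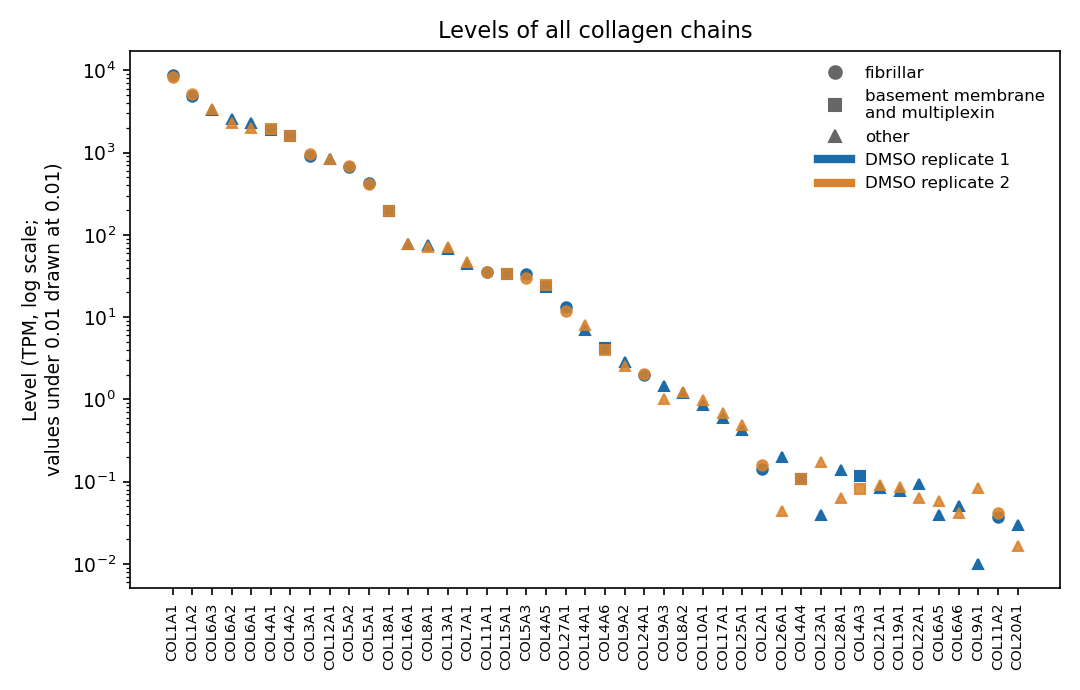
Levels of all 44 collagen chains (TPM, log scale, values under 0.01 drawn at 0.01) in DMSO replicates 1 and 2, in falling order, with the class of each chain as its symbol. The chains from COL1A1 to COL5A1 have means at or above the 419 TPM of COL5A1.

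The enzymes that process collagen were present as a complete set. All 26 were detected and 17 reached 100 TPM. None differed 1.5-fold between replicates, against 0.525% of all genes with a mean normalized count of at least 50. P4HB, the disulfide isomerase that is also the beta subunit of prolyl hydroxylase, had 1714 and 1654 TPM. LOXL2 had 1534 and 1417 TPM and LOX 1110.2 and 1156 TPM. Both are lysyl oxidases that crosslink collagen, and their order turned round per coding length (820.0 TPM for LOXL2 and 1679.7 TPM for LOX). SERPINH1, the collagen chaperone HSP47, had 977 and 950.1 TPM. The lysyl hydroxylases PLOD1 (817 TPM), PLOD2 (515 TPM) and PLOD3 (304 TPM) and the prolyl hydroxylase chain P4HA1 (401 TPM) lay in the upper range, while P4HA3 (26.1 TPM) and LOXL3 (7.84 TPM) were lower. Of the enzymes that trim procollagen, BMP1 (88.4 TPM) and ADAMTS2 (78.4 TPM) were higher than ADAMTS3 (4.20 TPM) and ADAMTS14 (0.808 TPM).

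Of 30 matrix glycoproteins, 28 were detected and MGP and TNXB were not listed. TNXB lies in the stretch of chromosome 6 described below, so its missing row is not read as a level. The detected glycoprotein genes are described here. They took 3.35 ± 0.0924% of the gene reads. FN1, TGFBI and SPARC, a collagen-binding protein of remodelling tissue, were followed by THBS1, a thrombospondin that activates TGF-beta, with 2219.7 and 2397 TPM. Within the thrombospondins, THBS2 had 37.1 TPM, THBS3 15.3 TPM and THBS4 0.581 TPM. The elastic fibre genes were FBN1 (347 TPM), EFEMP2 (340.2 TPM), FBLN5 (308 TPM), EMILIN1 (260.1 TPM), ELN (80.4 TPM) and FBN2 (73.2 TPM), so that elastin itself lay below several of the proteins that organise it. TNC, a tenascin of developing and wounded tissue, had 357 ± 14.5 TPM and POSTN 109 ± 2.45 TPM.

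Of 23 proteoglycans, 18 were detected. GPC1, a membrane glypican, had 307 and 309 TPM, VCAN, the large aggregating versican, had 265 and 260.1 TPM, and SDC4, a syndecan of focal adhesions, had 238 and 260.2 TPM. The syndecans SDC3 (134 TPM), SDC2 (109 TPM) and SDC1 (97.9 TPM) were all well detected. Of the small leucine-rich proteoglycans, DCN, BGN (143 TPM) and LUM stood far above FMOD (6.12 TPM) and PRELP (0.548 TPM), and OGN (0.0448 TPM) and ASPN (0.0243 TPM) were not detected. In the basement membrane list, 14 of 15 were detected. The laminin gamma chain LAMC1 (494 ± 0.360 TPM) and beta chain LAMB1 (385 TPM) were far above the highest alpha chain, LAMA4 (48.7 ± 1.06 TPM), and NID2 (304 TPM), NID1 (159 TPM) and the perlecan gene HSPG2 (102 TPM) lay between. Chains of epithelial laminin were low, with LAMB3 at 1.94 TPM and LAMA3 at 0.266 TPM.

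Inhibitors of matrix breakdown stood above most proteases. TIMP1, an inhibitor of metalloproteinases, had 2977 and 2644 TPM. TIMP2 (986 TPM) and TIMP3 (593 TPM) were also high and passed or approached TIMP1 per coding length (1982 TPM for TIMP2, 1566 TPM for TIMP3 and 1802 TPM for TIMP1), while TIMP4 had 3.16 TPM. Of the proteases, the lysosomal cathepsin CTSB had 1114 and 1084 TPM, the membrane metalloproteinase MMP14 1026 and 965 TPM, the gelatinase MMP2 613 and 543 TPM and the collagenase MMP1 492 and 537 TPM. MMP3 (21.1 TPM) was lower, and MMP9 (0.0570 TPM), MMP7 (0.101 TPM), MMP8 (0.211 TPM) and MMP12 (0.547 TPM), which are made mostly by leukocytes and epithelia, were not detected. The plasminogen activator PLAU (709.7 TPM) and its receptor PLAUR (336 TPM) were both in the upper range.

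Cytoskeletal genes took 7.55 ± 0.206% of all TPM, more than the matrix lists together (5.07 ± 0.0835%), while in reads the matrix held 9.74 ± 0.157% and the cytoskeleton 6.27 ± 0.188%. The cytoplasmic actins far exceeded the muscle ones, and ACTB exceeded ACTG1 by a ratio of 1.30 ± 0.0949. ACTA1 of skeletal muscle (7.70 TPM) and ACTC1 of heart (4.91 TPM) were near the low end. The tropomyosins stood in the order TPM2, TPM4 and TPM1 (2014 TPM), then TPM3 (584 TPM), but per coding length TPM2 (2516 TPM) lay below TPM4 (3212 TPM) and TPM1 (2962 TPM). Of 27 myosin and actin binding genes, 25 were detected, 23 of them at 100 TPM or more. FLNA, a filamin that crosslinks actin, had 2287 and 2175 TPM and MYH9, the non-muscle myosin heavy chain, 1672 and 1564 TPM, which was 15.1 ± 0.606 times MYH10. TAGLN (1566 ± 52.0 TPM), CALD1 (1411 ± 62.6 TPM), ACTN1 (1119 ± 53.8 TPM) and MYL9 (1092 ± 118 TPM) all passed 1000 TPM. Per coding length CALD1 (922 TPM) and ACTN1 (681 TPM) did not. Among intermediate filaments, LMNA (926 TPM) of the nuclear lamina followed VIM, then LMNB2 (273 TPM), NES (215 TPM) and LMNB1 (132 TPM). The keratins KRT18, KRT7 (116 TPM), KRT19 (19.9 TPM) and KRT8 were detected beside epithelial adhesion genes that were low or absent. The leading tubulins were TUBA1B (1610.3 ± 144 TPM), TUBB6 (1204 ± 38.6 TPM), TUBA1A (1191 ± 75.2 TPM) and TUBB4B (1039 ± 82.1 TPM). The tubulin TUBB (21.4 and 40.7 TPM) lies in the stretch of chromosome 6 described below, where values are not read as levels of these cells. Its place among the tubulins is therefore not known.

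The adhesion receptors were those of a mesenchymal cell. ITGB1, the beta chain that most matrix integrins share, had 2630.4 and 2650.5 TPM, and 17 of 26 integrin genes were detected. Its partners ITGA5 (679 TPM) for fibronectin, ITGA2 (222 TPM) and ITGA1 (93.7 TPM) for collagen, ITGA6 (193 TPM) and ITGA3 (182 TPM) for laminin and ITGAV (165 TPM) were all detected, with ITGB5 (359.8 TPM) and ITGB3 (66.7 TPM) as other beta chains. The leukocyte integrins ITGAL, ITGAM, ITGAX and ITGB2 each stood below 0.1 TPM, and the epithelial ITGB6 at 0.150 TPM. Of 11 cadherins, CDH2 (195 ± 7.84 TPM), which encodes N-cadherin, CDH6 (167 ± 4.35 TPM), CDH11 (113 TPM), the cadherin of mesenchyme, and CDH13 (48.1 ± 0.939 TPM) led. The caveola genes CAVIN1 (1614 TPM) and CAV1 (1089 TPM, but 2372 TPM per coding length), which form the plasma membrane pits common in fibroblasts, both passed 1000 TPM, and the calmodulin genes CALM2 (891 TPM, but 2479 TPM per coding length) and CALM3 (499 TPM) came next in their list.

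The S100, galectin, annexin and thymosin genes took 3.72 ± 0.153% of all TPM from 1.10 ± 0.0281% of the reads, since most are short. After TMSB10 and LGALS1 came S100A6, ANXA5, S100A11 (1917 TPM) and ANXA2 (1723 TPM). TMSB4X, the other common thymosin, had 1329 and 1637 TPM, so TMSB10 exceeded it by a ratio of 11.5 and 8.13, but by 2.85 ± 0.684 per coding length. S100A4, often used as a fibroblast marker, stood at 44.5 ± 3.43 TPM, below S100A6, S100A11, S100A10 (952 TPM), S100A16 (483 TPM) and S100A13 (122 TPM). S100A8, S100A9 and S100B were not listed.

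HOX genes, which in fibroblasts mark position along the body axis, were highest among the low-numbered members of clusters A and B, the numbers running from the head end to the tail end of the body. Of 39 HOX genes, 30 were listed and 16 detected. In cluster B, 7 of 10 were detected. HOXB2 had 148 and 131 TPM, HOXB5 73.9 and 71.2 TPM, HOXB6 69.1 and 70.3 TPM and HOXB7 58.7 and 54.6 TPM. HOXB3 (44.0 ± 0.835 TPM) and HOXB4 (16.2 ± 0.586 TPM) were lower, HOXB8 stood at 3.11 ± 0.992 TPM, and HOXB9 (0.116 TPM) and HOXB13 (0.0711 TPM) were not detected. HOXB2 was close to HOXB6 per coding length (74.3 against 73.9 TPM), so its lead rests on the transcript length.

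In cluster A, HOXA5, a gene needed for lung development in mice, was the highest with 30.5 and 29.7 TPM, followed by HOXA3 (12.1 ± 0.358 TPM), HOXA4 (7.80 ± 1.87 TPM), HOXA2 (4.72 ± 0.127 TPM), HOXA7 (3.07 ± 0.980 TPM) and HOXA6 (1.47 ± 0.0190 TPM). HOXA9, HOXA10, HOXA11 and HOXA13 stood between 0.0290 and 0.158 TPM and were not detected. In cluster C only HOXC8 (2.02 ± 0.369 TPM) and HOXC6 (1.14 ± 0.0544 TPM) were detected, while HOXC4, HOXC5, HOXC9, HOXC11 and HOXC13 lay at or below the 0.792 TPM of HOXC4. In cluster D none was detected, the highest being HOXD9 at 0.712 TPM, and 6 of 9 members were not listed. Among the paralogue groups from 9 upward no gene of any cluster was detected.

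**Figure D4:**
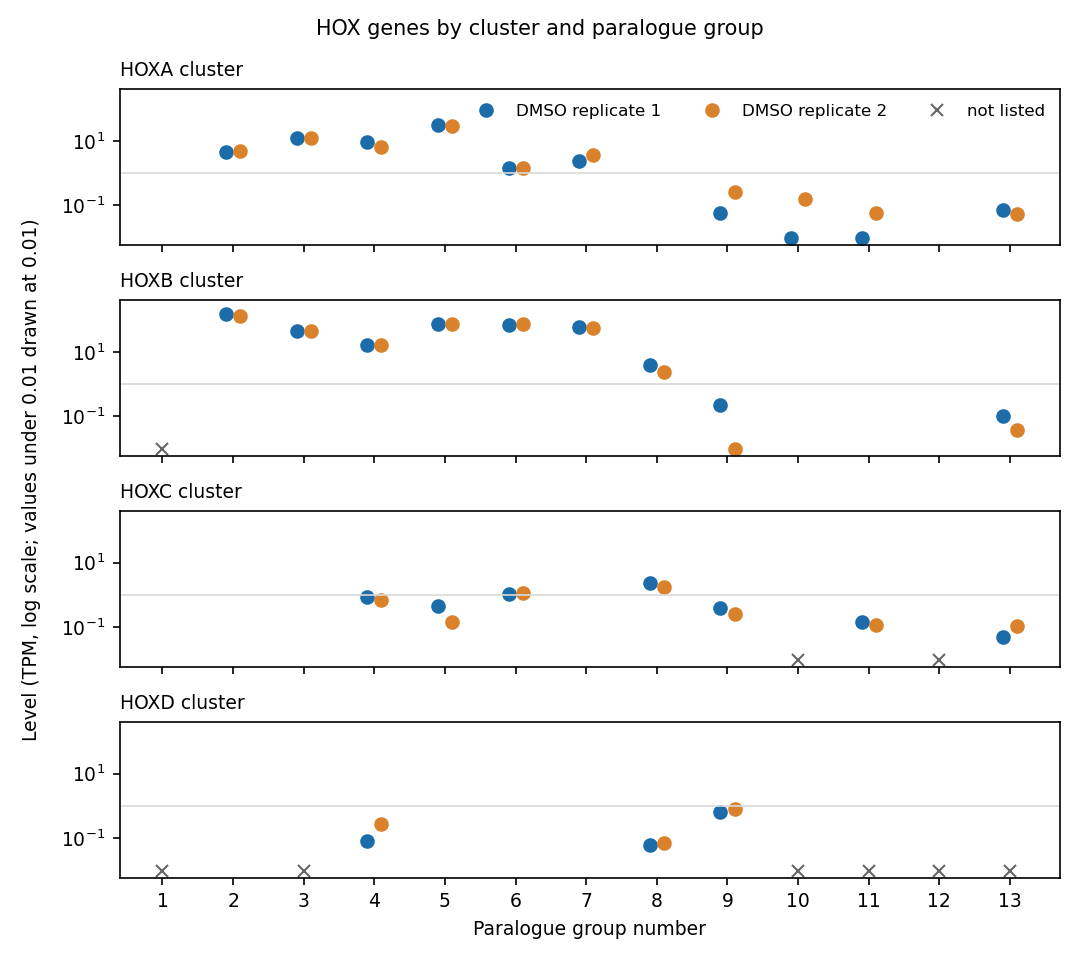
Levels of the HOX genes reported here (TPM, log scale, values under 0.01 drawn at 0.01) by paralogue group number, in 4 panels for clusters A to D, for DMSO replicates 1 and 2, with genes that are not listed marked by a cross. The points above 10 TPM are HOXA3, HOXA5 and HOXB2 to HOXB7, and all points from group 9 on lie below 1 TPM.

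Transcription factors of lung mesenchyme and mesoderm were tallied from a list of 64, of which 41 were detected. FOXD1 led with 197 and 212 TPM. FOXF1, a forkhead factor of lung mesenchyme, had 168 and 143 TPM, which was 3.78 ± 0.0119 times FOXF2 (41.1 TPM). SNAI2 (142 TPM) and ZEB1 (129.7 TPM), repressors of epithelial genes, and the orphan receptor NR2F2 (140.0 TPM) were next, and SNAI2 exceeded SNAI1 by a ratio of 6.52 ± 0.373. Per coding length FOXD1 (121 TPM) lay below NR2F2 (216 TPM), SNAI2 (181 TPM) and FOXF1 (175 TPM). Of the T-box factors, TBX3 (117 TPM), TBX2 (108 TPM) and TBX5 (43.1 ± 5.34 TPM) were expressed, but TBX4, the partner of TBX5 in lung budding in mice, stood at 0.141 and 0.392 TPM and was not detected. FOXL1 (89.2 TPM), PITX1 (83.2 TPM), a hindlimb factor, PRRX2 (76.3 TPM), SOX9 (48.4 TPM) and TCF21 (25.7 TPM), a factor of lung fibroblast precursors, were also above 20 TPM. MEOX2, NKX2-5, EN1, IRX3, IRX5 and EMX2 were not listed.

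Of 49 secreted ligands and modulators, 40 were detected and 2 were not listed, against 72.3% detected of all genes with a row. Of them 18 reached 100 TPM, against 1943 of the 17500 genes with a length. The highest were DKK3 (1644 ± 37.8 TPM), of the Dickkopf family, CTGF (1463 ± 61.4 TPM) and CYR61 (1202 ± 28.6 TPM), matricellular proteins known as targets of YAP, and FSTL1 (1120.1 ± 24.7 TPM), related to follistatin. FST itself had 562 TPM, the WNT antagonist SFRP1 555 TPM and the BMP antagonist GREM1 483 TPM. Per coding length the order of the leaders turned round, with GREM1 at 4643 TPM and FSTL1 at 2618 TPM, above DKK3 at 1450.4 TPM and CTGF at 1188 TPM. WNT5A had 370.1 and 390.3 TPM and TGFB1 344 and 287 TPM, against 17.9 TPM for TGFB2 and 1.26 TPM for TGFB3. VEGFC had 252 and 267 TPM and VEGFA 30.4 and 28.2 TPM, a ratio of 8.88 ± 0.840 that shrank to 1.48 ± 0.140 per coding length. FGF5 (119 TPM) exceeded FGF2 (52.6 TPM), FGF1 (20.2 TPM) and FGF7 (17.9 TPM), also per coding length (281 against 149.7 TPM for FGF2), and FGF10 was not listed. IGF2, a fetal growth factor, had 3.41 ± 0.0980 TPM, and IGF1 (0.0416 TPM) and the non-coding RNA H19 (0.0255 TPM) next to IGF2 were not detected. IGF2 is part of an annotated read-through gene, a class with lower levels described below, so its value is less certain. The binding proteins of these factors were high, with IGFBP3 at 1942 and 1976 TPM, IGFBP4 at 1649.8 and 1667 TPM, IGFBP5 at 791 TPM, IGFBP7 at 607 TPM and IGFBP6 at 291 TPM. Per coding length IGFBP5 (2189 TPM) passed IGFBP3 (1927 TPM).

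On the receptor side, 27 of 36 receptor tyrosine kinases were detected, and only AXL, PDGFRB and FGFR1 reached 100 TPM. AXL, the receptor for GAS6, had 501 and 526 TPM, well above PDGFRB (196 and 187 TPM). PDGFRB exceeded PDGFRA by a ratio of 1.93 ± 0.0332. FGFR1 had 127 ± 8.82 TPM, whereas FGFR3 (4.58 TPM) and FGFR4 (1.01 TPM) were low and FGFR2 was not detected (0.0899 TPM). EPHA2 (94.5 TPM), EGFR (65.6 TPM), MET (56.6 TPM), ERBB2 (54.2 TPM) and the collagen receptor DDR2 (33.9 TPM) were intermediate. All 12 receptors of the TGF-beta family were detected, led by ENG (232 TPM), TGFBR2 (160.0 ± 1.67 TPM), ACVR1 (85.2 ± 1.10 TPM) and BMPR2 (61.5 ± 3.48 TPM). Per coding length TGFBR2 (151 TPM) passed ENG (131 TPM).

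Genes of inflammatory secreted factors and of cyclooxygenases, which are not secreted, were few and low. Of 25, 12 were detected, and 1, the cytokine IL11, reached 100 TPM with 125 and 142 TPM. PTGS1 (94.4 ± 1.34 TPM), a cyclooxygenase, CCL2 (86.3 ± 0.686 TPM), a monocyte chemokine, and CXCL12 (43.5 ± 0.349 TPM, but 133 TPM per coding length) followed. IL6 (7.03 ± 0.172 TPM), CXCL8 (9.01 ± 0.586 TPM) and PTGS2 (7.37 ± 0.726 TPM) stayed below 10 TPM, and IL1A (0.213 TPM) and IL1B (0.494 TPM) were not detected. Of 24 interferon-stimulated genes, 17 were detected and 1 reached 100 TPM. ISG15 (63.0 ± 2.41 TPM), STAT2 (62.4 ± 0.560 TPM) and IRF9 (30.3 ± 3.81 TPM) lay below that, while the antiviral effectors MX1 (1.33 TPM) and IFIT1 (2.96 TPM) were low. Immediate early genes, the first response to serum, were led by FOSL1 (542 ± 44.3 TPM), DUSP1 (346 ± 26.7 TPM), JUN (228 ± 0.866 TPM) and KLF6 (213 ± 12.3 TPM, which passed FOSL1 per coding length at 425 against 405 TPM), with FOS (1.94 ± 0.393 TPM) and FOSB (0.399 TPM) near the low end.

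All 27 proliferation genes were detected, with a median of 166 TPM and 23 at 100 TPM or more. STMN1, a microtubule regulator, had 461 and 456 TPM and RRM2, of ribonucleotide reductase, 319.8 and 337 TPM. HMGB2 (326 TPM) and PCNA (314 TPM), the sliding clamp of DNA replication, were next. MKI67, the marker of cycling cells, had 142 and 129 TPM, the mitotic cyclin CCNB1 238 and 253 TPM and its kinase CDK1 139 and 186 TPM. Of the D cyclins, which start the cycle, CCND1 had 1192 and 1268 TPM and exceeded CCND3 by a ratio of 7.67 ± 0.178, while CCND2 stood at 9.04 TPM. The kinase partners of the D cyclins were CDK4 at 257 TPM and CDK6 at 96.1 TPM, an order that turned round per coding length (213 and 414 TPM), and CDK2, the partner of cyclin E, had 221 TPM. The chromatin proteins HMGA1 (1258 and 1086 TPM) and HMGA2 (302 and 328 TPM), typical of fetal and dividing cells, were both high, and higher still per coding length (2866 and 2102 TPM).

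Inhibitors of the cycle and related genes were measured in the same libraries. MDM2, the ubiquitin ligase that Nutlin-3a binds, had 18.3 and 21.6 TPM, and CDKN1A, the inhibitor p21, 268 and 255 TPM. CDKN1A was the only 1 of 15 genes of this list to reach 100 TPM. CDKN2A, the locus of p16 and ARF, had 46.7 ± 2.37 TPM and CDKN2B 12.0 ± 0.591 TPM, with RB1 at 77.9 ± 5.10 TPM and the inhibitor CDKN2C at 55.5 ± 2.34 TPM. TP63 (0.0801 TPM) and TP73 (0.139 TPM), transcription factors of epithelia and of the nervous system among other tissues, were not detected. TERT, the catalytic subunit of telomerase, stood at 0.239 and 0.0995 TPM and was not detected, while DKC1 (132 TPM), which stabilises telomerase RNA, and the shelterin genes TERF2IP (113 TPM), TINF2 (60.1 TPM), ACD (30.1 TPM), TERF2 (28.9 TPM), POT1 (18.9 TPM) and TERF1 (16.8 TPM) all were. Of 16 histone genes, 11 were detected and 2 were not listed. The variants H2AFZ (560.1 and 896 TPM), H3F3B (504 and 572 TPM), H2AFX (315 and 302 TPM) and the linker histone H1F0 (247 TPM), whose mRNAs carry a polyA tail, were high. The replication-dependent HIST1H4C (1.93 and 7.66 TPM) and HIST1H3B (1.46 and 0.972 TPM), whose mRNAs end without one, were not detected in this RNA, which was selected by its polyA tail. HIST1H2BK (66.6 TPM) and HIST1H1C (41.8 TPM), which are also named as clustered histone genes, were detected, so the clustered genes did not all go the same way. The part of the polyA tail in these levels was not tested.

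Glycolytic genes took 2.65 ± 0.0932% of all TPM, and of the 25 isozymes 20 were detected. For each step a main isozyme stood out. GAPDH, PKM, ENO1 and LDHA led, followed by ALDOA (1970.1 TPM) and TPI1 (1664 TPM). ENO1 exceeded ENO2 by a ratio of 20.0 ± 0.610, ALDOA exceeded ALDOC by 50.7 ± 0.559, LDHA exceeded LDHB by 3.38 ± 0.283 and HK1 exceeded HK2 by 2.98 ± 0.258. The platelet phosphofructokinase PFKP had 694 ± 32.6 TPM, above the liver form PFKL (98.9 ± 1.05 TPM) and the muscle form PFKM (70.4 ± 4.14 TPM). PKLR, the isozyme of liver and red cells, HK3 and the testis isozyme LDHC were not detected. Of the glucose transporter genes, SLC2A1 (473 and 441 TPM) exceeded SLC2A3 (70.0 TPM) by a ratio of 6.55 ± 0.638. Of the lactate transporter genes, SLC16A3 (321 and 364 TPM) had 4.71 ± 0.0497 times the level of SLC16A1 (72.8 TPM).

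The genes of the oxygen response were read at 3% oxygen with no culture at another oxygen level to set beside them. HIF1A had 296 and 279 TPM and EPAS1, which encodes HIF-2 alpha, 275 and 248 TPM, an order that turned round per coding length (162 and 188 TPM). The prolyl hydroxylase EGLN1, which marks HIF for breakdown, had 41.3 ± 3.42 TPM, the ligase subunit VHL that then binds it had 31.9 TPM, and EGLN3, itself a HIF target, was not detected at 0.379 and 0.561 TPM. Of 20 hypoxia-response genes all were detected and 11 reached 100 TPM. After LDHA, LOX, PGK1 (549 TPM) and SLC2A1 came P4HA1 and ADM (241 TPM), NDRG1 (182 TPM) and BNIP3 (154 TPM). ANGPTL4 (25.7 TPM), PDK1 (16.7 TPM) and CA9 (5.94 ± 0.332 TPM), a carbonic anhydrase used as a marker of hypoxia, were at the low end of the list.

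Iron storage and antioxidant genes were high, with 26 of 27 detected. FTL exceeded FTH1 (2208 and 2078 TPM), the heavy chain of ferritin, by a ratio of 2.37 ± 0.225. MT2A had 3204 and 3494 TPM, the metallothionein MT1E 435 and 525 TPM and the peroxiredoxin PRDX1 1147 and 1217 TPM. HMOX1 (26.9 TPM), an inducible stress gene, and SOD2 (26.8 TPM, but 208 TPM per coding length) were much lower. All 22 cholesterol synthesis genes were detected, with FDPS (152 TPM) and FDFT1 (139 TPM) among the highest. All 21 genes of folding in the endoplasmic reticulum were detected as well, 16 at 100 TPM or more, led by CALR, P4HB, HSP90B1 (1416 TPM) and HSPA5 (942 TPM).

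The 76 ribosomal protein genes took 4.84 ± 0.00259% of all TPM. Members differed more between the libraries than this sum, and in both directions. RPS12 had 1427 and 1894 TPM and RPL39 23.8 and 42.1 TPM, higher in replicate 2, whereas RPS27 had 1751 and 1442 TPM. RPL8 led with 2509 and 2285 TPM, before RPL41 (2216 TPM), RPS6 (1947 TPM) and RPL7A (1749 TPM), and 68 genes reached 100 TPM. Per coding length this lead turned round, with RPL41 at 7508 TPM and RPL8 at 1177 TPM. Those that did not reach 100 TPM included RPL13A (94.2 TPM), RPS29 (36.8 TPM), RPL39, RPL17 (11.1 TPM), RPS10 (3.28 TPM), RPL36A (2.25 TPM) and RPS18 (0.456 TPM), named here because of their values. Per coding length RPL13A (126 TPM), RPS29 (361 TPM) and RPL39 (149.6 TPM) passed 100 TPM and the others named did not. A ribosome holds most of its proteins in equal copies. RPS18 was little above the floor of 3 reads, with normalized counts of 3.91 and 4.30. Of 23 translation factors, 22 were detected, led by EEF2 (2310.0 TPM), EEF1A1 (1837 TPM), RACK1 (1578 TPM) and TPT1 (1002 TPM), and the muscle and neuron factor EEF1A2 stood at 0.917 TPM. Per coding length TPT1 (2968 TPM), EEF1A1 (2139 TPM) and EIF1 (1395 TPM) all passed EEF2 (1032 TPM) and RACK1 (982 TPM). EIF4A1, a helicase of translation initiation, was not listed. Of 24 long non-coding RNAs, 21 were detected, with SNHG5 (231 ± 35.4 TPM), NORAD (181 ± 21.3 TPM), MIR100HG (142 ± 0.319 TPM) and MALAT1 (139 ± 25.7 TPM) highest, and HOTAIR and HOTTIP, which lie in the HOXC and HOXA clusters, were not listed.

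Low or missing values were gathered in the major histocompatibility complex on chromosome 6. In the stretch of 178 coding genes from TRIM27 to ZBTB9, whose ends were set after the values had been seen, 53 genes were listed and 13 (7.30%) were detected. Of the 100 coding genes before it 40.0% and of the 100 after it 58.0% were detected, against 62.0% of all other coding genes. The median listed gene of the stretch had 0.186 TPM, against 14.6 TPM elsewhere. HLA-C was the highest with 232 and 262 TPM, then HLA-B with 92.2 and 76.6 TPM. B2M, the light chain that all class I molecules share and whose gene lies on another chromosome, had 698 and 741 TPM. TAP1 (0.0203 TPM) and HLA-E (0.123 TPM) were not detected, and HLA-F and HLA-G were not listed. The stretch also holds genes with no part in immunity that are expressed widely, among them RPS18, TUBB (21.4 and 40.7 TPM), BRD2 (1.77 TPM) and DAXX (1.10 TPM), and the collagen gene COL11A2 lies in it too. The genome build hg19, as distributed, carries alternate sequences of this stretch, to which a read can align as well as to the main chromosome. Whether they were in the index is not given in the sources used here, and their part in these values was not tested. The levels of genes of this stretch are therefore not read as levels of these cells.

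Lower levels were also seen for genes that are part of an annotated read-through gene, a model that joins neighbouring genes. Of 214 such coding genes 146 were listed and 110 (51.4% of the 214) were detected. Of the 19544 other coding genes outside the stretch on chromosome 6, 15409 were listed and 12148 (62.2%) were detected. Both shares count genes that are not listed as not detected, so they hold missing rows as well as low values. The median of the listed genes was 2.82 TPM, against 14.8 TPM for the others. RPL17, RPS10, RPL36A, IGF2 and the HIF hydroxylase EGLN2 (0.0650 TPM) are each part of an annotated read-through gene. Reads that lie in more than 1 gene made up 2.20% of the total in each library and were given to no gene. Whether this lowered these genes was not tested.

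The replicates were close. Over 11429 genes with a mean normalized count of at least 50, log2 levels correlated with Pearson's r of 0.996, a description across genes, which are not independent replicates, and 89.5% of genes lay within 1.2-fold. With 60 genes at 1.5-fold or more (0.525%), 27 were higher in replicate 1 (0.236%) and 33 in replicate 2 (0.289%). Fold changes here are on the scale of log2(normalized count + 1). The pair nonetheless differed more than the replicate pairs of the other groups, its log2 differences having an SD of 0.171, against 0.118 to 0.128 for the Nutlin-3a pairs. The difference moved with base composition. Its rank correlation with the GC content of the transcript was 0.434 over 11343 genes, against -0.309, 0.114 and 0.232 in the Nutlin-3a pairs at 6, 9 and 12 h. Replicate 1 over replicate 2 had a median log2 difference of -0.11 in the fifth of genes with the lowest GC content and 0.08 in the fifth with the highest. The part of this trend in any single difference was not tested.

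Among genes with a mean of at least 100, those furthest above replicate 2 in replicate 1 were SUSD2 (128 and 79.5 normalized counts, replicate 1 and 2), DYSF (166 and 105), a membrane repair gene, C1RL (176 and 115), CLEC2D (372 and 245), MMP17 (225 and 150.4), LINC00987 (1002 and 674), ALPK1 (189 and 128) and AKNA (317 and 215). Those furthest the other way were the small nucleolar RNAs SNORD20 (65.5 and 228) and SNORA104 (313 and 619.9), then TUBB (507 and 952), TMEM56 (74.3 and 132), PIGF (133 and 233), RPL39 (371 and 650.0), SNHG19 (144 and 244) and METTL25 (83.1 and 136). Small nucleolar RNAs are cut from introns and are not captured evenly by polyA selection. Of the highly expressed genes, H2AFZ differed most visibly, with normalized counts of 8585 and 13586.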

How the data were processed

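PolyA RNA was sequenced from IMR90 cells as strand-marked libraries, per the labels' protocols. Per the submitters' processing notes, the tools were STAR and DESeq2, the build was hg19 and no versions were listed. Which annotation, counting tool and strand setting were used is not given in the sources used here. A normalized signal was deposited by the authors, in which the reads of a gene are divided by the library's size factor. Every value was a whole multiple of 1 read within a tolerance of 1e-06. Entries for reads given to no gene (29.1% and 28.8% of the DMSO totals) were dropped, and an entry named Unannotated (0.0187% of each) was not counted among the 18215 genes.

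TPM was computed with Python 3.11.15 and pandas 2.3.3 from the longest GENCODE 29 transcript of each gene on GRCh38, used for names, lengths and gene order only. Names matched for 17299 genes by symbol, 20 by an older symbol and 181 by a synonym. The unmatched genes held 0.0860% of the reads. Promoters came from RefSeq on GRCh38.p14. The steps were tested on simulated data.

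No test between groups was made, so values are means with their SD (n = 2) or the values of both libraries. Named genes are the 30 highest, the 4 highest of each list, the members of the collagen, HOX and marker lists, and the 8 furthest apart each way between replicates among genes with a mean of at least 100. Other names were chosen after their values were seen, and some genes that this rule takes are not reported here. The gene lists were chosen with earlier results of these data known. Alternatives were another length, other minimums, scalings and pseudocounts, and each library alone.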

Additional observations from a re-analysis of the deposited data

How the results depend on the processing

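No paired analysis was possible because no groups were compared. The count of detected genes was 13493 from replicate 2 alone and 13440 from replicate 1 alone, and 16671 or 11320 with a minimum of 1 or 50. The share of the 100 highest genes was 25.1% or 26.2% from replicate 2 or 1 alone and 25.2% per coding length, and it moved to 24.2% as a share of reads with no length. The count of genes at 1.5-fold between replicates depended on the minimum, with 539 at a mean of at least 10, 9 at a mean of at least 200 and 3112 with no minimum, against 60. Other scalings gave 60 and 62, and pseudocounts of 0 and 5 gave 64 and 51. Leaving out the stretch on chromosome 6, an alternative chosen after seeing the data, gave 13160 detected genes, 25.6% and 58 genes. Levels of single genes depended more on the length used. Per coding length, 178 of the 680 detected genes from the lists and the 30 highest moved by 2-fold or more, 108 of them down and 70 up. Of 49 list medians, 41 moved by at least their SD. With 2 libraries, the SD itself is poorly known.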
